A study of Mus musculus with 6 samples.

Results

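Dlk1, Meg3, Mirg, Rian, Cdkn1c, Nnat, Peg3, H19, Igf2 and Grb10 are imprinted genes, and their transcripts were followed here across single cells of mouse lung tumours. The 10 genes were named by symbol and chosen by their measured levels by gate and trap state in these cells, so the levels by cell gate below are a description and carry no test. Of the 10 genes, 9 had a row among the 31055 features of the count matrix, and Rian is not analysed here. Tumours were started by lentiviral Cre given into the trachea and carried the KrasLSL-G12D allele, Lkb1 XTR/XTR and the Rosa26LSL-tdTomato reporter in all 6 mice. XTR is a gene trap, a splice acceptor joined to eGFP, in the first intron of Stk11, the gene that encodes the kinase LKB1. Cre turns the trap into the orientation that ends the transcript, and the recombinase FLPo-ERT2 removes it again when tamoxifen is given. After 20 weeks of tumour growth and 2 weeks of treatment, the Restored group was 3 mice with FLPo-ERT2 given tamoxifen (4 mg per dose). The NonRestored group was 1 mouse without FLPo-ERT2 given tamoxifen, 1 mouse without it given vehicle and 1 mouse with it given vehicle. The sorted tdTomato-positive, lineage-negative cells of these mice form 1 pooled matrix whose cells were not assigned to mice here, so the groups were not compared, barcodes shared between libraries were not counted, and the whole matrix is 1 sample.

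An imprinted gene is transcribed from the maternal or the paternal copy alone. Dlk1, Meg3, Rian and Mirg sit side by side in the Dlk1-Dio3 domain: Dlk1, Rtl1 and Dio3 are expressed from the paternal copy, and the noncoding Meg3, Rian and Mirg from the maternal copy, in the same orientation and with many small RNAs processed from their introns. Dlk1 encodes a transmembrane protein related to the Notch ligands that is abundant in embryonic tissues and declines after birth. Cdkn1c encodes the cyclin-dependent kinase inhibitor p57, Nnat a small membrane protein of the endoplasmic reticulum, Grb10 an adaptor that restrains insulin and IGF receptors, Igf2 a growth factor, Peg3 a zinc-finger protein and H19 a noncoding RNA. In the adult lung, alveolar type II (ATII) cells make surfactant and can give rise to the flat alveolar type I (ATI) cells.

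In the annotation of build GRCm38 (mm10), Dlk1 covered chr12:109452823-109463336, Meg3 chr12:109541001-109571726 and Mirg chr12:109729764-109749460, all on the plus strand, with Meg3 as a lincRNA. Cdkn1c lay at chr7:143458339-143461050, Peg3 at chr7:6703892-6730431, Igf2 at chr7:142650766-142666816 and H19 at chr7:142575529-142578143, all on the minus strand. Nnat lay at chr2:157560078-157562522 on the plus strand and Grb10 at chr11:11930508-12038683 on the minus strand. The start-site windows of 4 genes follow, from 250 bases before to 50 after the RefSeq start on GRCm38.p6, each read 5′ to 3′ on the strand of its gene. Dlk1 and Meg3 are shown as the coding and noncoding ends of the locus pair whose co-detection is described, Nnat because it was highest in another gate than they were, and Peg3 because its window shares a motif with that of Meg3. Capitals mark TGACG or its reverse complement CGTCA, the core of a cyclic AMP response element, and the palindrome TGACGTCA that holds both.
Dlk1 (chr12:109452573-109452872, plus strand): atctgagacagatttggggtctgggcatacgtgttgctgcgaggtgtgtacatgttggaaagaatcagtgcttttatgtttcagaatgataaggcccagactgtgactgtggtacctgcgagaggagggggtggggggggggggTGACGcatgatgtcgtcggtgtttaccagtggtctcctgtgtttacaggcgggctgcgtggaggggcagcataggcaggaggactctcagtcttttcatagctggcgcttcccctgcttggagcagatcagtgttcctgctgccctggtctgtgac
Meg3 (chr12:109540746-109541045, plus strand): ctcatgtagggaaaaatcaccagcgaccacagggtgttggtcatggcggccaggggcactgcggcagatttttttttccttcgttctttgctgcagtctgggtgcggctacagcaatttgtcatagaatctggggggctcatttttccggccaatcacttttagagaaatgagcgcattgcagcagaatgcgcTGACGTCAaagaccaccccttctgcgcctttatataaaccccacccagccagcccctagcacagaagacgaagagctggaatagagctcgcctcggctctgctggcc
Peg3 (chr7:6730370-6730669, minus strand): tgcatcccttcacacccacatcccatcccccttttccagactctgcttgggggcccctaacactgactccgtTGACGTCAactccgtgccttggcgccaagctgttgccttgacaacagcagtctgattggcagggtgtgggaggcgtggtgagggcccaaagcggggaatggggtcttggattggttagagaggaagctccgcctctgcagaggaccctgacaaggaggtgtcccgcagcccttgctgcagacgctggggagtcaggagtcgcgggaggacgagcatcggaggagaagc
Nnat (chr2:157559828-157560127, plus strand): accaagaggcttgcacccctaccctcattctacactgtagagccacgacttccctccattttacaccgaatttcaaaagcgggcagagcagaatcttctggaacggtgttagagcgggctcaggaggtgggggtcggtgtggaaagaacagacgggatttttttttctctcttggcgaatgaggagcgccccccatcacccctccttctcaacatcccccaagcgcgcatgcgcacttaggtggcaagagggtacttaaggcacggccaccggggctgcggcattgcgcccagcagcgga
The palindrome TGACGTCA began 57 bases before the Meg3 start and 178 bases before the Peg3 start, and 1.79% of all 32851 windows of this length held it. The Dlk1 window held 1 TGACG, 106 bases before the start, as did 20.8% of all windows. The Nnat and Mirg windows and the second Meg3 window held none. TTGCNNAA, a C/EBP-type motif found in 10.8% of windows, was in none of the windows of these genes, and CAAGTG, an NKX2-type motif found in 13.6%, was in 1 Grb10 and 1 Igf2 window. Both strands were searched, and a match or its absence is a property of these letters only. Cdkn1c and H19 are named only.

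The annotated span of Mirg held 14 miRNA hairpins with 26 mature miRNAs, all on its strand, and 25 different seeds. One seed, shown in capitals at bases 2 to 8, was shared by a pair of them.
mmu-miR-453: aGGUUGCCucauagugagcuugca
mmu-miR-496a-5p: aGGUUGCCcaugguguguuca
Mature miRNAs carry no poly(A) tail and were not measured by this assay, so Mirg values below are those of the host transcript.

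The deposited matrix held counts of unique molecular identifiers (UMIs, 1 per captured transcript molecule). Cells with at least 500 detected genes and at most 20% mitochondrial UMIs were kept, 12183 of 16017 (76.1%), with a median of 19348 UMIs. Levels are given as UMIs per 10000 UMIs of the gate, with exact 95% Poisson intervals, and shares of cells with exact 95% binomial intervals where one is printed. These intervals cover counting error only, not the spread between mice. The ATII gate (Sftpc at least 500, Hopx under 2 and Krt8 plus Krt18 under 50, all per 10000) took 6975 cells, the ATI gate (Hopx at least 15) 1083 cells and the keratin-high gate (Krt8 plus Krt18 at least 50) 1183 cells, of which 127 were also in the ATI gate, and 3069 cells met none of these. Gates were checked on fixed marker lists, which share genes with the gates: among these 4 sets of cells, 12 of 12 ATII markers were highest in the ATII gate, 10 of 10 ATI markers in the ATI gate and 7 of 8 transitional keratin markers in the keratin-high gate. Lyz2, one of the ATII markers, was higher still in the immune-marker cells, at 301.6 per 10000 against 135.9. As cells that should lack these epithelial states, 246 fibroblast-marker cells, 129 endothelial-marker cells and 82 immune-marker cells were gated among the same cells. Median depth was 21660 UMIs in the ATII gate, 12374 in ATI, 23490 in keratin-high, 15072 in fibroblast, 9925 in endothelial and 23683.5 in immune cells, so shares of cells are also given after each cell was thinned to 5000 UMIs, which left out 1099 shallower cells. No doublet caller was run. UMIs of both Xist and a Y-linked gene were in 180 cells (1.48%), which gives no doublet rate, because 2 cells of the same mouse share its sex.

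Dlk1 was highest in the ATII gate. Its level was 5.31 UMIs per 10000 (interval 5.28 to 5.35) in the ATII gate, 0.782 (0.751 to 0.814) in keratin-high cells and 0.198 (0.177 to 0.222) in ATI cells. The ATI level was thus 26.8 times lower (23.96 to 30.1) and the keratin-high level 6.80 times lower (6.53 to 7.08) than that of the ATII gate. The sizes of both differences depended on few cells and on the settings: 4 of the 1083 ATI cells carried 64.8% of the ATI Dlk1 UMIs, and 8 of the 1183 keratin-high cells 49.6% of theirs. On the log2 scale the ATI difference, -4.74, was -5.68 with thinned cells and -3.73 in cells with Y-linked and no Xist UMIs, and the keratin-high difference, -2.76, was -1.83 with looser gates and -4.26 in those Y-linked cells. Dlk1 was lower than in the ATII gate under each of these settings. Cells outside these gates held 0.845, fibroblast cells 5 UMIs in all and endothelial cells 1 UMI. The immune cells held 45 Dlk1 UMIs, 31 of them in 1 cell. Dlk1 UMIs were present in 21.1% of ATII-gate cells, 11.4% of keratin-high cells, 4.62% of ATI cells, 2.03% of fibroblast cells and 13.4% of immune cells. After thinning these shares were 15.8%, 5.14%, 1.88%, 1.07% and 5.56%. The keratin-high and ATI shares were thus no higher than that of the 72 thinned immune cells and above that of the fibroblast cells. The comparison cells give no single background, and these shares alone are not read as expression. With 20 or more Dlk1 UMIs there was 1 immune cell and 0 fibroblast or endothelial cells, while 21 keratin-high cells held 20 to 99 and 8 held 100 or more. The gates also differ in their mix of GFP-positive and Stk11-positive cells (cells with UMIs of GFP alone or of Stk11 alone). Within these, the keratin-high level was 9.30 and 10.4 times lower than that of the ATII gate, and the ATI level 25.8 and 16.6 times lower.

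Meg3 was the most widely detected of the genes, with UMIs in 79.4% of all filtered cells. Its level was 28.6 in the ATII gate, where the median cell stood at 22.8, against 9.91 in keratin-high cells and 4.12 (4.02 to 4.22) in ATI cells. The keratin-high level was 2.88 times lower and the ATI level 6.94 times lower (6.77 to 7.11) than the ATII level. Within GFP-positive and Stk11-positive cells, the keratin-high level was 3.67 and 6.39 times lower and the ATI level 6.60 and 6.04 times lower. As a mean over cells rather than over UMIs, the ATI difference was -3.43 on the log2 scale against -2.79. Other cells stood between, at 14.2. Thinned shares of cells with Meg3 were 85.6% in the ATII gate, 62.8% in keratin-high cells and 33.1% in ATI cells, and 21.9%, 23.5% and 25% in fibroblast, endothelial and immune cells. In those 3 comparison gates the Meg3 level was 1.54, 1.35 and 2.39, and 5 cells held 59.5%, 78.7% and 77.4% of the UMIs.

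Mirg followed the same order of gates at lower counts. It stood at 0.399 in the ATII gate, 0.162 in other cells, 0.101 in keratin-high cells and 0.0329 in ATI cells, and the intervals of the ATI, immune, fibroblast and endothelial gates overlapped. The ATI level was 12.1 times lower (9.20 to 16.3) and the keratin-high level 3.94 times lower (3.51 to 4.42) than that of the ATII gate. Within GFP-positive and Stk11-positive cells, the keratin-high level was 5.35 and 12.9 times lower and the ATI level 12.1 and 18.5 times lower. The Stk11-positive values rest on 7 keratin-high and 5 ATI Mirg UMIs, so their size is uncertain. Set against Meg3, its neighbour, Mirg gave 13.97 UMIs per 1000 Meg3 UMIs (13.6 to 14.3) in the ATII gate, 10.2 in keratin-high cells and 8.0 (5.96 to 10.5) in ATI cells. The quotient of the pair thus varied less between gates than the level of either gene. B830012L14Rik, an unnamed transcript between Rian and Mirg, gave 8.92 UMIs per 1000 Meg3 UMIs in the ATII gate and 4.67 in keratin-high cells. Of the other rows of the domain, Rtl1 held 83 UMIs in the ATII gate and Dio3, which encodes the type 3 deiodinase, 55 UMIs. Gm26906 overlaps the end of Meg3 on the opposite strand and Gm26945 lies within the span of Rian, so their counts may not be separate from those of their neighbours.

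Cdkn1c, Nnat and Grb10 did not share this order. Cdkn1c was highest in cells outside the gates, at 0.731, with 0.591 (0.580 to 0.603) in ATII and 0.570 (0.533 to 0.609) in ATI cells, whose intervals overlapped, and 0.413 in keratin-high cells. Nnat was highest in ATI cells, at 1.99 (1.92 to 2.07), which was 3.38 times the ATII level of 0.589 (3.25 to 3.52). It stood at 0.831 in keratin-high cells, and thinned shares of cells were 39.7% in ATI and 17.2% in the ATII gate. The order of keratin-high and ATII cells depended on trap state: the keratin-high level was 1.08 times the ATII level in GFP-positive cells and 3.26 times lower in Stk11-positive cells. The ATI level was 2.58 and 6.11 times the ATII level in these. The fibroblast level of Nnat, 0.569, overlapped that of the ATII gate, and the endothelial level was 0.0360. Grb10 was highest in endothelial (0.815) and fibroblast cells (0.777), whose intervals overlapped, against 0.118 in ATII, 0.106 in ATI and 0.0822 in keratin-high cells.

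Peg3 was nearly confined to the fibroblast-marker and endothelial-marker cells of these libraries. Those 372 cells, 3.05% of the filtered cells, held 205 of its 227 UMIs (90.3%), with 0.797 UMIs per 10000 in endothelial and 0.185 in fibroblast cells. The ATII gate held 18 Peg3 UMIs in 6975 cells, and ATI, keratin-high and immune cells held 0. Igf2 gave 15 UMIs in all, 7 of them in the fibroblast-marker and endothelial-marker cells. H19 had a row with 0 UMIs in 257163522 filtered UMIs. A count of 0 over all filtered cells allows a level of up to 0.000117 per 10000, taken as 3 counts of the total.

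**Figure D1:**
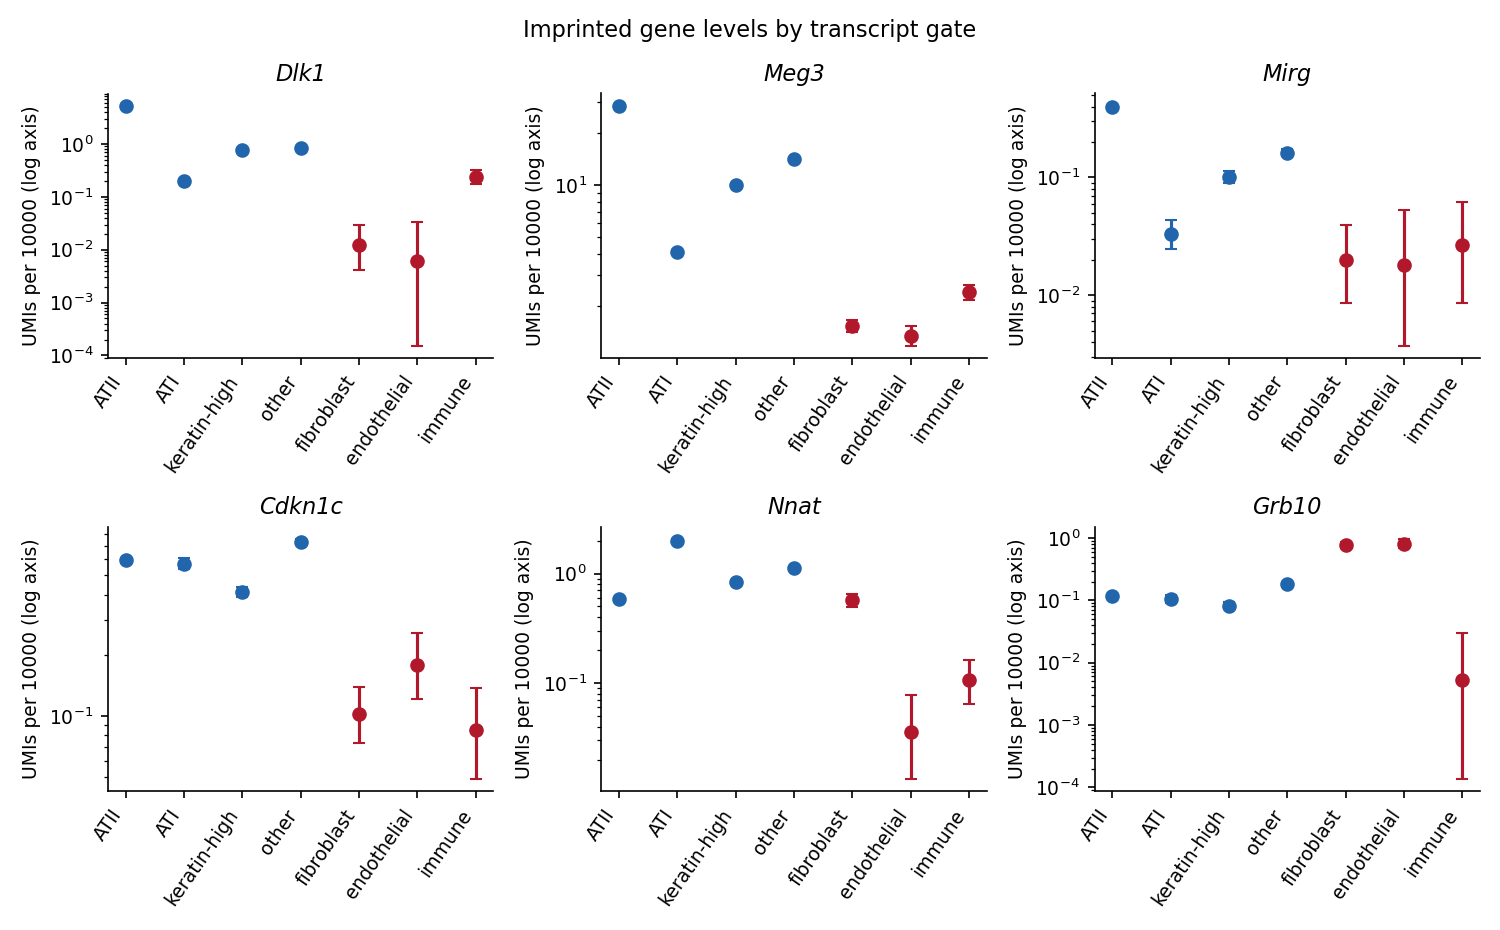
Levels of 6 imprinted genes (UMIs per 10000, log axes of different range) in the ATII, ATI and keratin-high gates and the other cells (blue) and in the fibroblast-marker, endothelial-marker and immune-marker cells (red) of the pooled matrix, with points at the gate level and bars for the exact 95% Poisson interval (counting error only, hidden by the point where narrow). Dlk1, Meg3 and Mirg stand highest in the ATII gate, Nnat in the ATI gate at 1.99, Cdkn1c in the other cells at 0.731 and Grb10 in the endothelial cells at 0.815.

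Against all features, the split between gates was read at a difference of 2-fold among features with at least 50 UMIs over both gates. Between keratin-high and ATII cells, 6 of the 9 genes reached that count: Dlk1, Meg3 and Mirg were lower by 2-fold or more and 0 were higher, while 8.43% of 13389 features were lower and 15.5% higher. Between ATI and ATII cells, 3 of 6 were lower and 1, Nnat, was higher, while 9.93% of 13165 features were lower and 12.9% higher. These shares are printed as background only, because the genes were chosen with the contrasts known. The median of all features was shifted by 0.32 and 0.33 (log2) in these 2 contrasts. Relative to it, Dlk1 stood at -3.09 and -5.07, Meg3 at -1.85 and -3.12, and Nnat at 0.17 and 1.43.

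Within the ATII gate, Dlk1 was spread very unevenly over cells. Of 6975 cells, 5506 (78.9%) held no Dlk1 UMI, and 343 held 1, 177 held 2 to 4, 241 held 5 to 19 and 424 held 20 to 99. The remaining 284 cells (4.07%) held 100 or more, and they carried 71.2% of all Dlk1 UMIs of the gate. One cell held 994. The 698 ATII-gate cells with the highest levels held 95.7% of the Dlk1 UMIs, while the same number of cells, ranked for each gene, held 34.6% of Meg3, 62.3% of Mirg, 59.2% of Cdkn1c and 73.6% of Nnat. Dlk1 was thus the most concentrated and Meg3 the most even of these 5 genes. Part of any such share is set by how many UMIs a gene has.

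**Figure D2:**
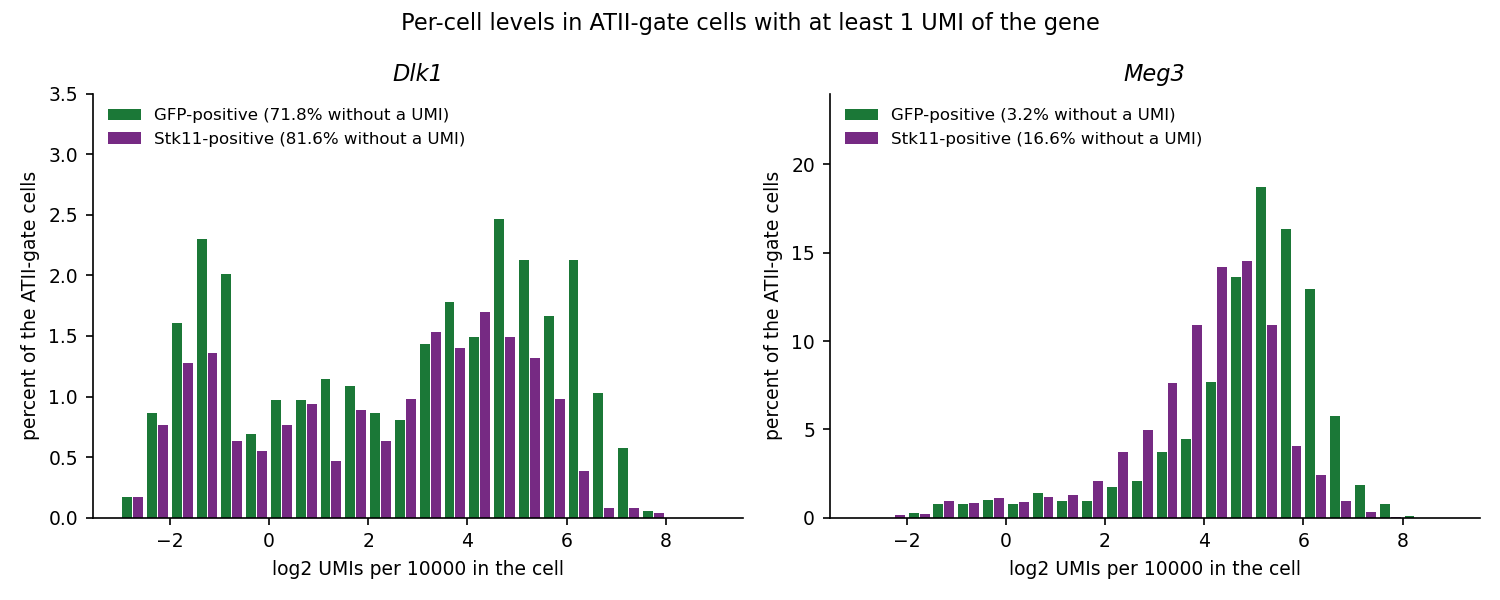
Per-cell levels of Dlk1 and Meg3 (UMIs per 10000 of the cell, log2 axis) in ATII-gate cells with at least 1 UMI of the gene, as the percent of GFP-positive cells (1742) and of Stk11-positive cells (2353) in each bin. Cells without a Dlk1 UMI were 71.8% of GFP-positive and 81.6% of Stk11-positive cells. The fullest Dlk1 bins of the GFP-positive cells begin at -1.5 (2.30% of cells) and 4.5 (2.47%), while Meg3 has a single peak. At these depths a cell with a single UMI falls in the low bins, and 115 GFP-positive cells (6.60%) held exactly 1 Dlk1 UMI. The low bins are therefore not read as a separate set of Dlk1-expressing cells.

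Co-detection across the Dlk1-Meg3 locus was counted in the 6772 ATII-gate cells thinned to 5000 UMIs, so that a deeper cell could not score more genes through its depth alone. Dlk1 was detected in 1071, Meg3 in 5799 and Mirg in 1049 of them. Meg3 without the others was the most frequent pattern, in 3987 cells (58.9%), followed by none of the 3 genes in 925 (13.7%), Meg3 with Mirg in 785 (11.6%), Dlk1 with Meg3 in 767 (11.3%) and all 3 in 260 (3.84%). Dlk1 alone was seen in 44 cells, Mirg alone in 4 and Dlk1 with Mirg but without Meg3 in 0. Nearly every cell with a Dlk1 or Mirg UMI thus also held Meg3, which is itself in most cells of the gate.

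The noncoding transcripts of the domain were detected in the same cells. Of 1049 cells with Mirg, 1045 held Meg3, and Mirg was present in 18.0% of cells with Meg3 and 0.411% of cells without it. For B830012L14Rik it was 744 of 745 cells, and for Gm26945 158 of 158. For Rtl1, a coding gene on the opposite strand between Meg3 and Rian, it was 17 of 17. That count is too small to read, because Meg3 was in 5799 of all 6772 cells. B830012L14Rik was present in 31.1% of cells with Mirg and 7.32% of cells without, and the 326 cells with both were 2.83 times the number that independent detection would give. Mirg was higher in each class of higher Meg3 count: its level was 0.00822 per 10000 in 973 cells with 0 Meg3 UMIs after thinning and 1.15 in 2029 cells with 20 or more. Between them, Mirg shares were 2.83%, 7.05% and 13.6% at 1 to 4, 5 to 9 and 10 to 19 Meg3 UMIs, and 34.6% at 20 or more. Other values also differed along these classes: the median mitochondrial share was 3.45% at 0 and 5.45% at 20 or more Meg3 UMIs, the fibroblast list 1.12 and 0.0897 per 10000 and the club list 4.45 and 0.870. Their part in the Mirg values was not tested. The cells share 1 pooled matrix, and a cell's state, mouse and tumour of origin are not separated in these shares.

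Meg3 was detected in nearly all cells with Dlk1. The parental copy behind a transcript was not measured. Meg3 was detected in 95.9% (94.5 to 97.0) of ATII-gate cells with Dlk1 and in 83.7% of cells without it, a quotient of 1.15. The quotient has little room above this, because Meg3 was in most cells without Dlk1 too, and 44 of the 1071 cells with Dlk1 held no Meg3. The Meg3 level, which has no such cap, differed from 29.4 per 10000 in 5701 cells with 0 Dlk1 UMIs to 48.7, 43.7, 46.3 and 54.5 in cells with 1, 2 to 4, 5 to 19 and 20 or more. The step lay between 0 and 1 Dlk1 UMI, and from there to 20 or more the values did not form an even slope. Mirg was detected in 24.3% of cells with Dlk1 and 13.8% without, and B830012L14Rik in 15.3% and 10.2%.

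Imprinted genes elsewhere in the genome had other patterns. Cdkn1c was detected in 12.98% of ATII-gate cells with Dlk1 and 20.3% without, and its share was 19.2%, 16.7%, 10.4% and 10.1% along the 4 classes of rising Dlk1 count. It also stood lower in cells with more Meg3, at 0.983 per 10000 with 0 Meg3 UMIs and 0.421 with 20 or more. Nnat was detected in 17.0% of cells with Dlk1 and 17.2% without, and Grb10 in 5.70% and 6.10%. In keratin-high cells, 56 of 1090 thinned cells held Dlk1, and Meg3 was detected in 92.9% of these and 61.2% of the rest. In ATI cells the shares were 77.8% of 18 cells with Dlk1 and 32.2% of the rest.

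**Figure D3:**
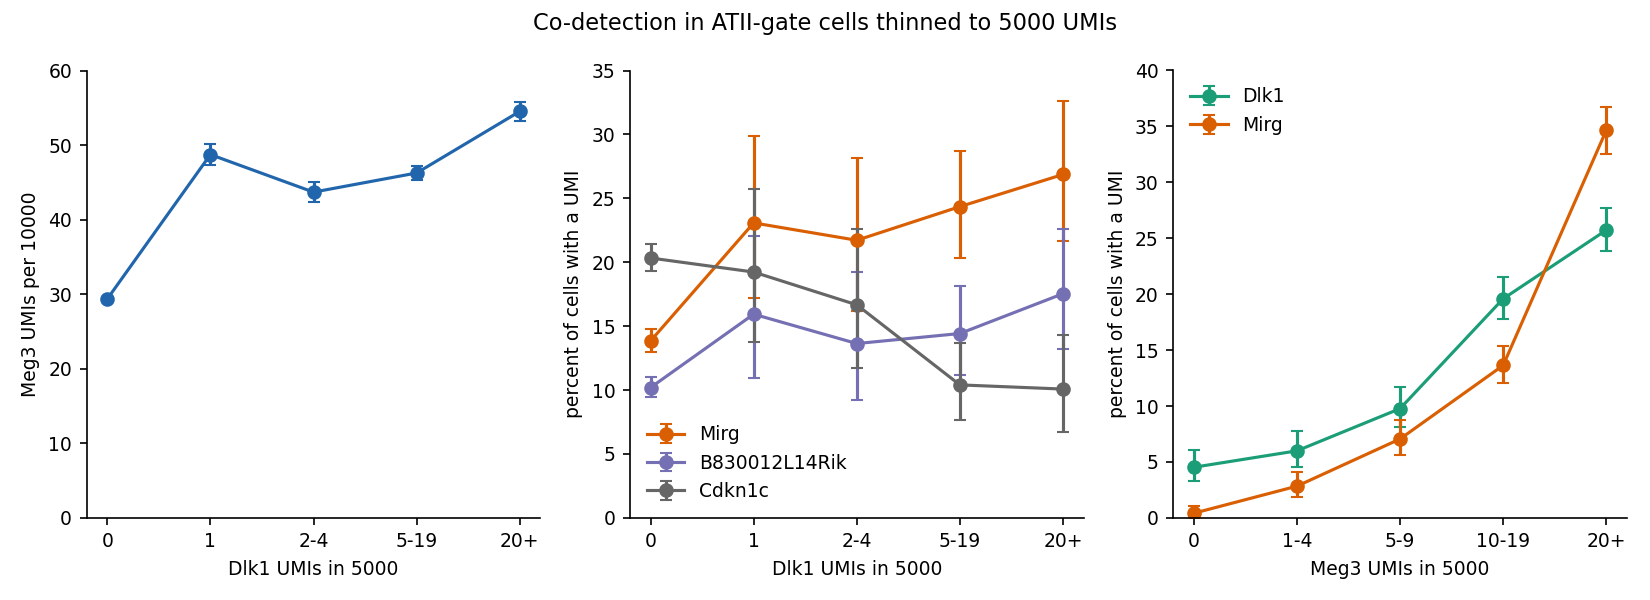
Co-detection in ATII-gate cells thinned to 5000 UMIs: Meg3 level (UMIs per 10000, left) and percent of cells with Mirg, B830012L14Rik or Cdkn1c (middle) along classes of Dlk1 UMIs, and percent of cells with Dlk1 or Mirg along classes of Meg3 UMIs (right), with exact 95% intervals (counting error only). Mirg reaches 34.6% of cells with 20 or more Meg3 UMIs, and Cdkn1c stands at 10.1% of cells with 20 or more Dlk1 UMIs against 20.3% of cells with none.

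Fibroblast, endothelial and club-cell markers were lower in cells with Dlk1, and immune markers were higher at a small level. In the 1071 thinned ATII-gate cells with Dlk1, the 7 fibroblast markers summed to 0.0336 per 10000 with Dlk1 (Col3a1 and Lum at 0) and 0.296 without, the 6 endothelial markers to 0.00934 (Cdh5, Cldn5, Emcn and Kdr at 0) and 0.0305, and the 3 club-cell markers to 0.803 and 1.74. The 4 ciliated-cell markers summed to 0.372 with Dlk1 and 0.324 without (Ccdc153 at 0 in both), with overlapping intervals. The 6 immune markers summed to 0.0896 with Dlk1 (Cd52 at 0) and 0.0319 without. These sums rest on few UMIs: 18 fibroblast, 5 endothelial and 48 immune UMIs with Dlk1, and 845, 87 and 91 without. How many cells carried them was not counted. The nuclear RNAs Malat1 and Neat1 summed to 293.8 and 401.2, and the cycling list (Mki67, Top2a, Cdk1, Birc5, Ccnb1) to 0.452 and 0.294. The 12 ATII markers summed to 2197 with Dlk1 and 2102 without, the 8 transitional keratin markers to 20.5 and 18.6 and the 10 ATI markers to 21.0 and 20.4, the last with intervals that nearly met. The part of these differences in the Dlk1 result was not tested.

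Trap state was read in each cell from the transcripts themselves. Cells with a GFP UMI and no Stk11 UMI are called GFP-positive, and cells with a Stk11 UMI and no GFP UMI Stk11-positive. They numbered 3360 and 3367 of the filtered cells, with 29 cells holding both and 5427 neither, and in the ATII gate they numbered 1742 and 2353 at median depths of 25472.5 and 25078 UMIs. They are not the groups of mice, and the trap state of a cell cannot be told apart from the mouse and tumour it came from.

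In the ATII gate, Dlk1, Meg3, Mirg and Nnat stood 2-fold or more higher in GFP-positive than in Stk11-positive cells. Dlk1 stood at 8.14 (8.06 to 8.22) in GFP-positive and 3.28 (3.23 to 3.32) in Stk11-positive cells, a ratio of 2.48 (2.44 to 2.53). Cells with a Dlk1 UMI were 28.2% and 18.4%, and cells with 100 or more 7.52% and 2.72%. Both the share of cells and the count per cell were thus higher in GFP-positive cells. Meg3 stood at 40.6 and 16.8, a ratio of 2.42 (2.40 to 2.44), with UMIs in 96.8% and 83.4% of cells. Mirg stood at 0.595 and 0.195, a ratio of 3.05 (2.85 to 3.27), and gave 14.7 (14.1 to 15.2) and 11.6 (10.99 to 12.3) UMIs per 1000 Meg3 UMIs. The largest ratio among the named genes was that of Nnat, 4.09 (3.86 to 4.33), from 1.00 and 0.245.

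Cdkn1c and Grb10 stayed under 2-fold. Cdkn1c stood at 0.764 in GFP-positive and 0.498 in Stk11-positive ATII-gate cells, a ratio of 1.53 (1.46 to 1.61), and Grb10 at 0.0937 and 0.130, 1.39 times lower (1.24 to 1.57). Peg3 (4 and 11 UMIs) and Igf2 (2 and 2 UMIs) were too low to compare. Of the 6 genes with enough counts, 4 were higher by 2-fold or more and 0 lower, while 4.95% of 12540 features were higher and 1.54% lower. The median of all features was shifted by 0.18 (log2), and relative to it Dlk1 stood at 1.13, Meg3 at 1.09, Mirg at 1.43, Nnat at 1.85, Cdkn1c at 0.43 and Grb10 at -0.66.

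The rest of the Dlk1-Dio3 domain had the same direction. B830012L14Rik stood 3.12 times higher in GFP-positive than in Stk11-positive ATII-gate cells (2.87 to 3.40), Gm26945 3.21 times (2.57 to 4.02), Gm26906 2.11 times (1.55 to 2.89) and Rtl1 3.08 times (1.64 to 6.07), the last from 35 and 15 UMIs. Dio3 gave 38 and 4 UMIs, under the count minimum. All 7 rows of the domain with enough counts were 2-fold or more higher in these GFP-positive cells, beside 4.95% of all features, a share given as background only because the genes were chosen with this contrast known. Relative to the median feature, Gm26906 stood at 0.90 (log2), under 2-fold, and the Meg3 ratio was 1.97 within cells with Xist and no Y-linked UMI.

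Outside the ATII gate the ratios were less uniform. In keratin-high cells, 642 GFP-positive and 165 Stk11-positive, Meg3 stood at 11.05 and 2.62, Nnat at 1.09 and 0.0754 and Dlk1 at 0.876 and 0.314, while Grb10 stood at 0.0821 and 0.0819. The Nnat ratio there, 14.4 (10.3 to 20.8), was larger than in the ATII gate, and its interval did not overlap that of the ATII gate. In ATI cells, 294 GFP-positive and 289 Stk11-positive, Meg3 was 2.21 times higher (2.07 to 2.36), Nnat 1.73 times (1.58 to 1.89) and Dlk1 1.59 times (1.23 to 2.07). In the cells outside the gates, 734 and 583, Nnat was 3.04 times higher (2.81 to 3.28), Dlk1 2.04 times (1.89 to 2.21) and Meg3 1.86 times (1.82 to 1.90).

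**Figure D4:**
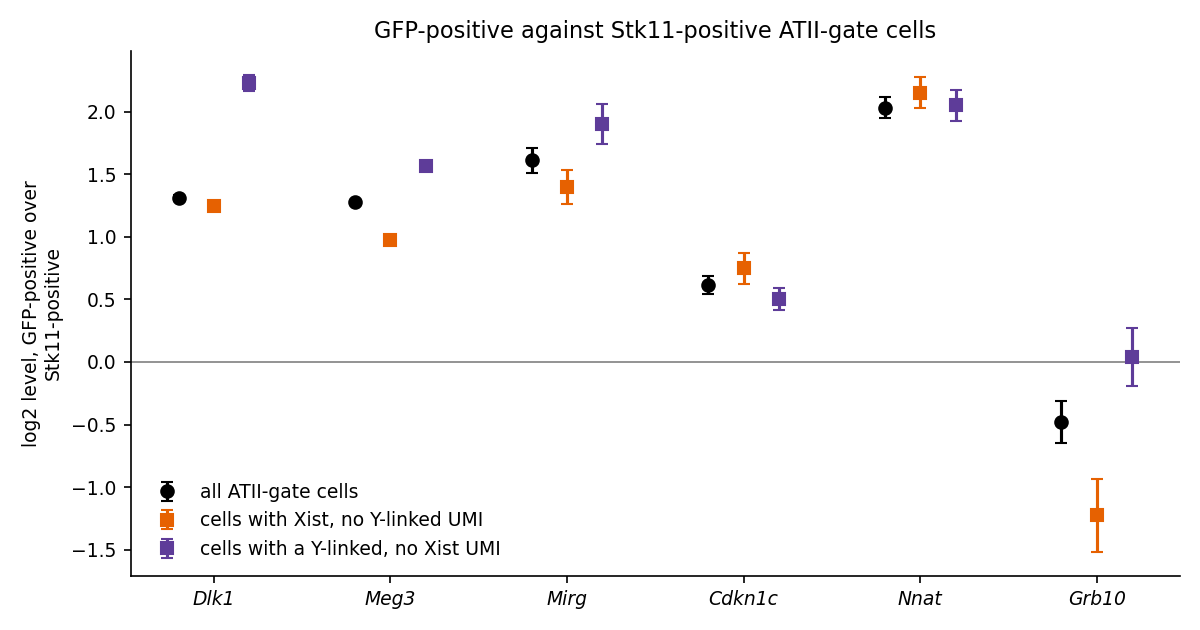
Ratio of the level in GFP-positive to that in Stk11-positive cells (log2 axis) for the imprinted genes in the ATII gate, for all cells of the gate and within cells with Xist or Y-linked UMIs only, with exact 95% intervals (counting error only). Nnat stands highest at 2.03 over all cells, and Grb10 lies at -0.48 over all cells, -1.22 within the Xist-only and 0.04 within the Y-linked-only cells.

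Other markers also differed between these ATII-gate cells. GFP-positive cells held 0.794 UMIs per 10000 of the cycling list against 0.186 in Stk11-positive cells, 25.8 against 14.9 of the 8 transitional keratin markers, 25.7 against 17.5 of the 10 ATI markers and 1859 against 2369 of the 12 ATII markers. The ciliated list stood at 0.487 and 0.181, the fibroblast list at 0.180 and 0.496, the club list at 0.621 and 1.31, and the nuclear RNAs at 369.0 and 329.2. The endothelial list (0.0405 and 0.0335) and the immune list (0.0324 and 0.0403) had overlapping intervals. Their part in the ratios was not tested. In the 100 thinned ATII-gate cells with at least 2 UMIs of the cycling list, Cdkn1c, a brake on the cell cycle, stood at 0.460 against 0.593 in the other cells, with shares of cells of 16.0% (9.43 to 24.7) and 19.2%, Meg3 at 22.1 against 32.5, Dlk1 at 6.90 against 4.35 and Nnat at 1.16 against 0.620.

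The gene whose detection was most like that of Dlk1 over the 6772 thinned ATII-gate cells was Xist, the noncoding RNA of the inactive X chromosome. Likeness was the phi coefficient of detection over 10599 genes seen in at least 1% of the cells, a description with no test. Phi is capped where the detection rates of 2 genes differ, so its order depends on those rates as well as on shared cells. For Xist it was 0.32, and Xist was detected in 76.0% of cells with Dlk1 and 32.5% without. Next came Fabp5 (0.21), a fatty acid binding protein, then Tmem252, Dmkn and Lrg1 (0.16 each). Meg3, detected in far more cells than Dlk1, was at 0.13. For Meg3 the genes with the highest phi were again Xist (0.26), with 44.5% of cells with Meg3 and 8.94% of those without, then Fbp2 (0.20), Trf (0.18), which encodes transferrin, Dmkn (0.17) and Chil1 (0.16). Mirg stood at 0.17, between Trf and Dmkn, with nearly all of its cells holding Meg3.

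Because Xist led both lists, cells were split, after the data had been seen, into those with Xist and no Y-linked UMI (Ddx3y, Eif2s3y, Uty, Kdm5d) and those with a Y-linked and no Xist UMI. Of the filtered cells these were 4639 (38.1%) and 6034 (49.5%). Cells of a mouse share its sex and every other feature of that mouse, which cannot be told apart here. In the ATII gate, 2831 Xist-only cells held Dlk1 at 10.1 per 10000 and 3455 Y-linked-only cells at 1.71, a ratio of 5.90 (5.79 to 6.01). Cells with a Dlk1 UMI were 40.8% and 7.41%. This was a larger difference than that between GFP-positive and Stk11-positive cells. Meg3 stood at 33.7 and 24.4, Mirg at 0.511 and 0.312, Nnat at 0.672 and 0.515 and Cdkn1c, in the opposite direction, at 0.457 and 0.720. In keratin-high cells Dlk1 was 16.5 times higher (13.9 to 19.7) in the Xist-only cells, from 1.47 and 0.0889.

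Within each of these 2 sets the GFP-positive ATII-gate cells again held more Dlk1, Meg3, Mirg and Nnat. Dlk1 stood at 15.7 and 6.63 in GFP-positive and Stk11-positive cells of the Xist-only set, a ratio of 2.37 (2.32 to 2.41), and at 3.40 and 0.724 in the Y-linked-only set, a ratio of 4.69 (4.48 to 4.91). The ratios of Meg3 were 1.97 and 2.96, of Mirg 2.63 and 3.73, of Nnat 4.44 and 4.14 and of Cdkn1c 1.68 and 1.42. Grb10 was 2.33 times lower in GFP-positive cells of the Xist-only set and within counting error of 1 in the Y-linked-only set (log2 0.04). In keratin-high cells the Dlk1 ratio was 1.48 (1.24 to 1.77) in the Xist-only and 13.6 (4.54 to 66.6) in the Y-linked-only set, and the Meg3 ratio there was 2.01 (1.89 to 2.14) and 14.8 (12.6 to 17.5), against 4.21 over all keratin-high cells. In ATI cells the Dlk1 ratio was 0.805 (0.573 to 1.13), an interval that includes 1, and 8.35 (4.24 to 18.7). In the cells outside the gates it was 0.905 (0.819 to 1.00), an interval that reaches 1, and 9.25 (7.54 to 11.4).

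Within the sets, the room for the quotient of Meg3 shares with and without Dlk1 differed with how widely Meg3 was detected, so the quotients set no order of strength. Meg3 was detected in 99.5% (98.8 to 99.9) of Xist-only ATII-gate cells with Dlk1 and 95.6% (94.6 to 96.5) without, a quotient of 1.04. In Y-linked-only cells the shares were 82.9% (76.4 to 88.3) and 78.0% (76.6 to 79.4), a quotient of 1.06, with overlapping intervals. The Meg3 level still differed, at 50.4 and 33.6 in the Xist-only cells and 38.8 and 27.0 in the Y-linked-only cells. Mirg was detected in 25.6% (22.8 to 28.7) of Xist-only cells with Dlk1 and 17.5% (15.8 to 19.3) without. In Y-linked-only cells its shares were 17.6% (12.2 to 24.2) and 11.9% (10.8 to 13.1), with overlapping intervals. The lower share of Cdkn1c beside Dlk1 was seen in Xist-only cells (11.5% and 19.4%), and in Y-linked-only cells the shares were 20.6% and 21.3%. The Meg3 level was thus higher in cells with a Dlk1 UMI within both sets. The Meg3, Mirg and Cdkn1c shares differed beyond counting error in the Xist-only cells and lay within it in the Y-linked-only cells.

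Other members of the pathways around these genes were read from fixed lists, between GFP-positive and Stk11-positive ATII-gate cells, where 4.95% of all 12540 features were 2-fold or more higher and 1.54% lower. Counts of 1 or 2 genes in lists of this size are given beside those shares as a description, and nothing particular to a list is read from them. Of 49 other imprinted genes with a row, 29 had enough counts, 1 was higher by 2-fold or more (Rtl1, 1.62 log2) and 1 lower (Dcn, -1.08), with a median of 0.14, against the median feature at 0.18. Dcn, which encodes the matrix protein decorin, was carried by few cells, 154 UMIs in 40 cells and 430 in 39 cells. Of 21 Notch pathway genes, 15 had enough counts, and 2 were higher: Lfng (1.58, from 52 and 23 UMIs), which modifies Notch receptors, and Notch3 (1.22, from 44 and 25 UMIs). The Notch target Nrarp stood at 0.92, the ligand Jag2 at -0.60 and the median of the list at 0.11. Of 17 insulin and IGF pathway genes, 15 had enough counts, 2 were higher and 1 lower, with a median of 0.03. The IGF binding proteins Igfbp5 (2.38, from 362 and 92 UMIs) and Igfbp3 (2.05, from 88 and 28 UMIs) were the higher ones, and the receptor substrate Irs1 stood at 0.85. Igfbp3 was carried by 42 and 12 cells, with 22 and 12 of its UMIs in the top cell of each. Stc2, which encodes a secreted inhibitor of the protease that frees IGF from its binding proteins, gave 0 UMIs in GFP-positive cells and 77 in 53 Stk11-positive cells, at least 19.5-fold lower when 0 is set to 3 counts.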

How the data were processed

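Sorted cells of 6 mice were measured by droplet single-cell RNA sequencing. The authors aligned reads to mm10 with Cell Ranger 3.0.2 and deposited 1 matrix of raw UMI counts per gene and cell. Here, Python 3.11.15 with numpy 2.4.6, scipy 1.17.1 and pandas 2.3.3 was used to filter and gate cells, sum counts per gate and thin cells to 5000 UMIs (seed 1). With 1 pooled sample there was no test, and features with at least 50 UMIs over both gates were read at 2-fold. Ratio intervals are exact conditional binomial, at 95%. No count model was fitted. The named genes are the 10 imprinted genes, the rows between Dlk1 and Dio3, list members past 2-fold or most changed, and the 5 other genes most like Dlk1 and Meg3. The members and lists were chosen with earlier results of these data known, and the Xist and Y-linked split and the cycling comparison were added after the data were seen. Gene positions were taken from the GRCm38 annotation and sequences from RefSeq GRCm38.p6. Ratios and thinning were checked on simulated data. Alternatives covered filters, gates, depth and scaling. Restored and NonRestored mice were not compared. One list of cell type markers is not reported here.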

Additional observations from a re-analysis of the deposited data

How the results depend on the processing

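The values are log2 differences in level for 6 contrasts, given in this order: Dlk1 and Meg3 in GFP-positive over Stk11-positive ATII-gate cells (1.31 and 1.27), Dlk1 in keratin-high and in ATI over ATII-gate cells (-2.76 and -4.74), and Meg3 in keratin-high and in ATI over ATII-gate cells (-1.53 and -2.79). Over 146 alternatives of 11 results, 145 kept the direction, and 58 stayed within the counting interval of the reported value. The exception was Grb10 by trap state, 0.043 in Y-linked-only cells. Without the 5% of cells with the most UMIs the 6 values were 1.21, 1.24, -2.94, -5.05, -1.57 and -2.91. Per 10000 UMIs other than Sftpc they were 1.25, 1.22, -2.98, -4.92, -1.74 and -2.97, and relative to the median feature 1.13, 1.09, -3.09, -5.07, -1.85 and -3.12. As means over cells they were 1.26, 1.16, -2.65, -5.31, -1.67 and -3.43, and with cells thinned to 5000 UMIs, where the GFP and Stk11 calls were also remade on the thinned counts (611 and 784 cells), 1.16, 1.06, -2.53, -5.68, -1.70 and -3.35. In Y-linked-only cells, a split added after the data were seen, they were 2.23, 1.56, -4.26, -3.73, -2.08 and -2.75. In Xist-only cells Dlk1 by trap state was 1.24, Meg3 by trap state 0.98, and Meg3 in keratin-high and ATI cells -1.18 and -2.53. With looser gates the last 4 values were -1.83, -4.98, -1.21 and -2.49, and with stricter gates -2.70, -5.20, -1.65 and -3.26. Without cells in both the ATI and keratin-high gates, Dlk1 in keratin-high cells was -2.67, and Meg3 was -1.45 and -2.74. With mitochondrial UMIs at most 10%, Meg3 was 1.33 by trap state, -1.47 in keratin-high and -2.75 in ATI cells. By trap state, Dlk1 and Meg3 were 1.28 and 1.26 with Sftpc at least 250 and 0.91 and 0.97 with no ATII gate, Dlk1 was 1.03 with 2 UMIs required, and Meg3 was 1.29 without the Dlk1-richest 5% of ATII-gate cells (added after the data were seen). The quotient of Meg3 shares with and without Dlk1, 1.15, was 1.16 with mitochondrial UMIs at most 10%, 1.10 not thinned, 1.12 thinned to 10000 UMIs, 1.33 over all filtered cells, 1.04 in Xist-only and 1.06 in Y-linked-only cells. The cause of these shifts was not tested. No paired analysis was possible because the matrix is pooled and its cells were not assigned to mice, which also leaves no replicate to omit. Depth limits the genes with few UMIs, such as Igf2, H19, Rtl1 and Dio3.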

Other observations

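Dlk1 classes of the thinned ATII-gate cells also differed in an ATII product. Lyz2, the lysozyme of ATII cells, stood at 119 UMIs per 10000 in cells with 0 Dlk1 UMIs and at 122, 136, 162 and 172 in cells with 1, 2 to 4, 5 to 19 and 20 or more. The share of GFP-positive cells was 24.1% in the cells with 0 Dlk1 UMIs and 43.3% in those with 20 or more, and that of Stk11-positive cells 35.3% and 19.8%. Median depth before thinning was 21299 and 28597.5 UMIs in these classes, which bears on how readily a GFP or Stk11 UMI was seen. Along the classes of Meg3 count, from 0 to 20 or more UMIs, GFP-positive cells were 10.7%, 19.1%, 16.6%, 26.7% and 39.4%, and Stk11-positive cells 50.6%, 42.4%, 46.3%, 36.5% and 14.8%. Median depth along those Meg3 classes was 22850, 21214.5, 24554, 24231.5 and 18730 UMIs and the median mitochondrial share 3.45%, 3.72%, 3.86%, 4.24% and 5.45%, so the class with the most Meg3 was also the shallowest. The part of depth in these shares was not tested.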
